A study of Homo sapiens with 3 samples.

Results

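SR splicing factors are RNA-binding proteins that carry 1 or 2 RNA recognition motifs and a tail rich in arginine and serine. The 10 genes SRSF1, SRSF2, SRSF3, SRSF4, SRSF5, SRSF6, SRSF7, SRSF9, SRSF10 and SRSF11 were described here by every non-control probe that carries one of these names, which gave 20 probes of the 58201 non-control probes on the array. Each probe was followed on its own, because these genes are transcribed into several isoforms. The measurements come from HCT116 cells, a human colorectal carcinoma line, and address how the RNAs of this protein family stand when the arginine methyltransferase PRMT1 is knocked down. One array held RNA of control cells (PRMT1-NC), 1 array RNA of the knockdown PRMT1-KD1 and 1 array RNA of the knockdown PRMT1-KD2, written NC, KD1 and KD2 below. All cells were of the same line and were transfected with Lipofectamine. The labels list a pair of PRMT1 siRNAs but do not say which of them, or whether a mixture, each knockdown received, and they state neither the time after transfection nor the oligonucleotide of the control.

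In the nucleus SR proteins bind enhancer sequences within exons and help the U1 and U2 small nuclear ribonucleoproteins to find the neighbouring splice sites. Their tails are phosphorylated by the SRPK and CLK kinases, phosphorylation lets the importin TNPO3 carry them into the nucleus, and several of them hand finished mRNA to the export factor NXF1. Many SR genes limit their own RNA by including a poison exon or keeping an intron, which sends the transcript to nonsense-mediated decay. PRMT1 is known to methylate arginines of RNA-binding proteins, SRSF1 among them.

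Because several results below turn on which stretch of a transcript a probe reads, the probes concerned are shown here 5′ to 3′ on the RNA sense strand, with hg19 positions. SRSF3, on the plus strand, was read by an upstream probe at chr6:36564681-36564740, printed whole because it lies in the coding part for the RNA recognition motif, and by a downstream probe at chr6:36570424-36570483, of which the first 30 bases are given.
SRSF3 A_33_P3232828: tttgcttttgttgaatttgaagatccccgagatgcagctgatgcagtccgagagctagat
SRSF3 A_23_P413761: aatgtcctgccagtttaagggtacattgta
SRSF5 was read by a pair of overlapping probes on chromosome 14, plus strand. The first, at chr14:70238119-70238178, reads through the end of the arginine and serine tail to a stop codon that starts at base 58, and the capitals mark the 46 bases that it shares with the second (A_23_P377819, chr14:70238133-70238192).
SRSF5 A_33_P3366146: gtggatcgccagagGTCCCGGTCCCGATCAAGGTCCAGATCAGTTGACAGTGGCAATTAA
SRSF10 was read by 4 probes on the minus strand of chromosome 1, and the first 30 bases of each are shown in the order in which the transcript runs, at chr1:24298341-24298400, chr1:24296247-24296306, chr1:24293038-24293097 and chr1:24291474-24291533.
SRSF10 A_33_P3303215: ggaggagatcaagaagtcggtcttttgatt
SRSF10 A_23_P352291: tagtcagttttaagcaagagtcacatcttt
SRSF10 A_32_P45493: gattattttgaggcagacagagagctgtta
SRSF10 A_23_P311201: ccccttcctcttaacagtgttggttatctt
SRSF6, on the plus strand, has a probe at chr20:42087885-42087944 whose first-listed transcript, NR_034009, is non-coding in RefSeq, and its first 30 bases are shown for that reason.
SRSF6 A_33_P3238455: cctatgaccctttggctgaccttaccggaa

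All 20 probes were well above background on all 3 arrays, none had a spot marked as an outlier and none was saturated. Signals are given as the log2 of the processed intensity minus the 75th percentile of the array, so that 0 is the array's 75th percentile and 1 unit is a doubling. On this scale the SR probes ran from -1.35 to 6.80 for NC, from -1.05 to 6.86 for KD1 and from -1.49 to 7.03 for KD2. Signals of different probes are not compared with each other, since probes differ in how well they bind. Every group had 1 array, so the differences below are unreplicated and are given without p-values. As measures of error, probes with several spots had a median SD between spots of 0.038 to 0.049 log2 units on the 3 arrays, and the pixels of the SR spots gave a standard error of at most 0.10. Neither holds the variation between cultures. The KD1 minus KD2 difference, both arms having PRMT1 as target, had a robust SD of 0.38 over the 22282 probes detected on every array and 0.32 over the 3430 of them whose mean signal lay between the quartiles of the SR probes. Both knockdowns are compared with the same NC array, so an error of that array enters both.

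**Figure D1:**
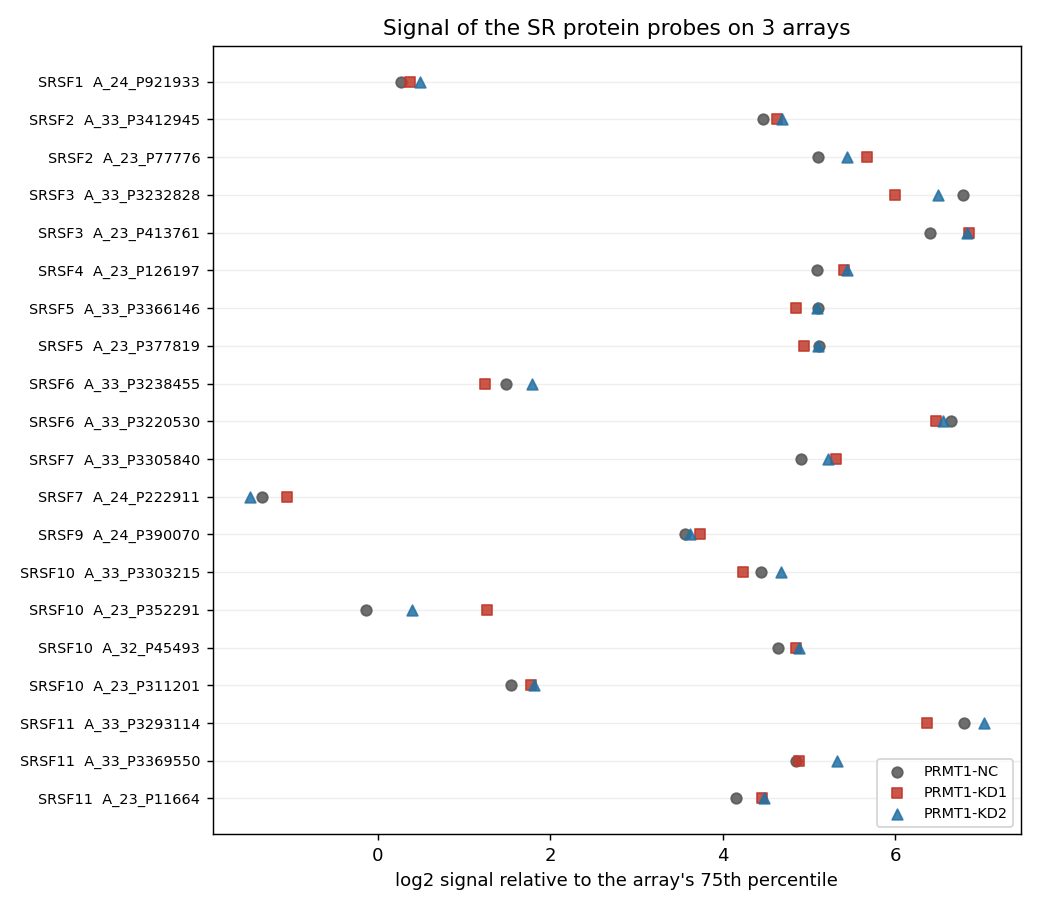
Signal of each of the 20 SR protein probes (rows, named by gene and probe) on the NC, KD1 and KD2 arrays, as log2 intensity relative to the 75th percentile of the array, 1 array per group and no error bar. For most probes the 3 markers lie close together, while SRSF10 A_23_P352291 runs from -0.14 on NC to 1.27 on KD1, and SRSF3 A_33_P3232828 lies at 6.79 on NC, with a KD1 change of -0.79.

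The targeted gene was examined first. PRMT1, read by 1 probe, had a signal of 6.03 on NC, 2.75 on KD1 and 1.48 on KD2, which is 10.3% of NC in KD1 and 4.26% in KD2. The 8 probes of the epithelial markers EPCAM, CDH1, KRT8, KRT18 and KRT19 were above background on every array. Of the intestinal markers, CDX2 and 1 probe of CDX1 were above background on all arrays, whereas VIL1 and LGR5 were not well above background on any. Of the 12 probes for markers of leukocytes, endothelium, fibroblasts and hepatocytes, 2 were above background on NC and KD1 (ALB and COL1A1) and 3 on KD2, where 1 of 5 PTPRC probes was added.

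With arrays scaled to their 75th percentile, most SR protein probes were within 1.5-fold of the control in both knockdowns. In KD1, 2 of 20 probes (10%) were past 1.5-fold, an SRSF10 probe that was higher and an SRSF3 probe that was lower. Among the 25241 probes measured in that comparison 29.1% were past 1.5-fold, 14.7% higher and 14.4% lower. Among probes of like signal, between the quartiles of the SR probes' mean signal (3.16 and 5.34), 18% were. Both called SR probes lay outside these quartiles, the SRSF10 probe below and the SRSF3 probe above. In KD2, 0 of 20 probes passed, against 23.8% of 25475 probes (12.6% higher and 11.2% lower) and 16.4% of those of like signal. On this scale the share of SR probes past 1.5-fold was below the background in both comparisons, but both the count and that order depended on the scaling. In KD1, 13 of 20 SR probes were past 1.5-fold with spike-in scaling, beside 53.4% of all probes, and 10 of 20 on the unscaled intensities, beside 39.3%. With normexp background correction 4 of 20 were, beside 12.6%. In KD2, 8 of 20 were past it with spike-in scaling, beside 29.9%. In each of these 4 cases the SR share was above that of all probes.

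Small differences ran upward more often than downward. In KD1, 13 of 20 probes (65%) were above NC and 7 below, beside 46.3% of all measured probes above, with a median change of 0.17 log2 units beside -0.05 over all measured probes and -0.02 over those between the quartiles of the SR probes' signal. In KD2, 15 probes (75%) were above and 5 below, beside 47.2% of all probes above, with a median of 0.23 beside -0.03 over all probes and -0.09 over those of like signal. The median of the SR probes moved with the processing, in KD1 from 0.06 with centring by GC content and brightness to 0.82 with spike-in scaling, and in KD2 from 0.08 with median scaling to 0.52 with spike-in scaling. Of the 20 probes, 12 were above NC in both knockdowns, 4 were below in both, and 4 lay on opposite sides with changes of at most 0.43 in size. The matching shares over all probes are not given here. Because both changes share the NC array, some likeness in direction arises for any probe. Between the knockdowns themselves, 2 of 20 probes were past 1.5-fold, beside 21.4% of 25686 probes and 10.2% of those of like signal. They were SRSF10 A_23_P352291, 1.83-fold higher in KD1, and SRSF11 A_33_P3293114, 1.58-fold lower in KD1. The signals of both lay outside the quartiles of the SR probes' signal.

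**Figure D2:**
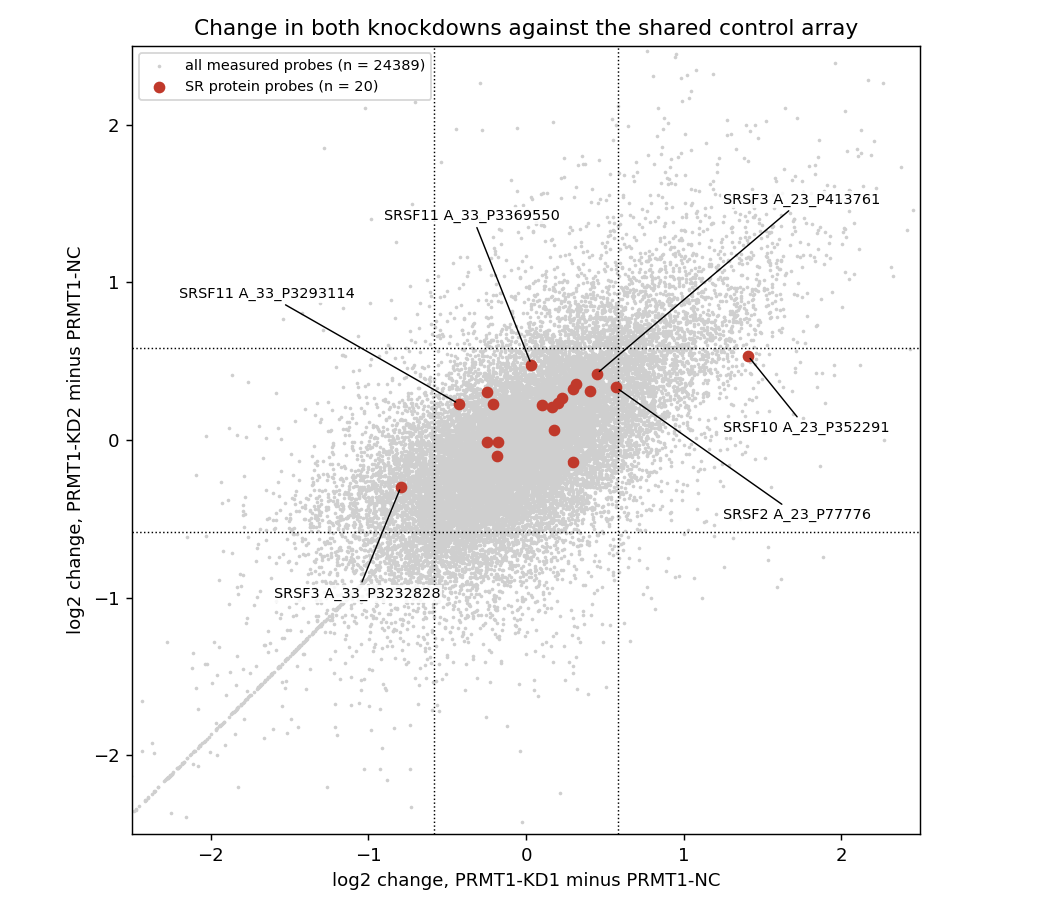
Log2 change of each probe in KD1 (x axis) and KD2 (y axis) against the NC array they share, for the 24389 probes measured in both comparisons (grey) and the 20 SR protein probes (red), with dotted lines at 1.5-fold. The axes end at 2.5, which leaves 139 probes outside, and the thin grey diagonal holds probes set to the detection floor on both knockdown arrays. SRSF10 A_23_P352291 and SRSF3 A_33_P3232828 are the red points past a dotted line, at 1.41 and -0.79 in KD1, and no red point is past one in KD2.

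SRSF3 encodes the smallest of these proteins, which also acts as an adaptor for mRNA export. Its upstream probe (A_33_P3232828) had signals of 6.79 on NC and 6.50 on KD2, and its KD1 change was -0.79 (intensities before scaling of 12704, 9773 and 11095 on NC, KD1 and KD2). NC was the highest and KD1 the lowest, and KD1 stood at 57.7% and KD2 at 81.5% of NC. Its downstream probe (A_23_P413761) had signals of 6.41 on NC, 6.86 on KD1 and 6.83 on KD2. Here NC was the lowest array, and the changes of 0.45 and 0.42 were nearly equal in the knockdowns. Relative to the downstream probe, the upstream probe was thus 2.36-fold lower in KD1 and 1.64-fold lower in KD2. The probes lie 5743 bases apart in the genome and 1011 bases apart in NM_003017, so 4732 bases of intron fall between them. Both probes list the same coding transcript NM_003017 and the non-coding transcript NR_036610.

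SRSF10 encodes a splicing factor that turns into a repressor when it is dephosphorylated, as in heat shock. The most upstream of its probes (A_33_P3303215) had signals of 4.45 on NC, 4.24 on KD1 and 4.68 on KD2. The probe A_32_P45493 had 4.65, 4.85 and 4.88 in the same order. Their changes lay between -0.21 and 0.24. The most downstream probe (A_23_P311201) read 1.55 on NC, 1.78 on KD1 and 1.82 on KD2, changes of 0.23 and 0.27. At these 3 probes both knockdowns lay between 86.3% and 120% of the control. The remaining probe (A_23_P352291) stood apart, with -0.14 on NC, 1.27 on KD1 and 0.39 on KD2. It was 2.65-fold higher in KD1, above 97.6% of all measured probes, and 1.45-fold higher in KD2, just under the threshold. Before scaling its intensities were 104, 368 and 162 in the same order, and the standard error from pixels of the KD1 change was 0.057 log2 units.

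The position of the SRSF10 probe that differed can be stated from the files. It and the most downstream probe are both listed under NM_054016, 4773 bases apart in that transcript and 4773 bases apart in the genome, so no intron of NM_054016 lies between them. A_32_P45493 lies within this same stretch. The 3 probes of this stretch, uninterrupted in NM_054016, had changes of 1.41, 0.21 and 0.23 log2 units in KD1. In KD2 the changes were 0.54, 0.24 and 0.27. The listed isoforms differ, so the probes need not read the same RNAs. A_23_P352291 lists the coding transcripts NM_054016 and NM_001191005, whereas A_32_P45493 also lists NM_006625 and NM_001191006. Relative to the last of them, the first was 2.26-fold higher in KD1.

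SRSF11 encodes a protein that contacts the U2AF heterodimer at the 3′ splice site. Its most upstream probe (A_33_P3293114, chr1:70715651-70715710) had signals of 6.80 on NC, 6.37 on KD1 and 7.03 on KD2, so that the knockdowns fell on opposite sides of the control. The middle probe (A_33_P3369550, chr1:70716305-70716364) read 4.85, 4.89 and 5.33 on NC, KD1 and KD2, and was 1.39-fold higher in KD2 while KD1 stood 1.02-fold above NC. The downstream probe (A_23_P11664, chr1:70716494-70716553) read 4.15, 4.45 and 4.48, with NC lowest and both knockdowns close together. The last pair of probes lie 189 bases apart both in NM_004768 and in the genome, which puts them in 1 exon. Their changes differed by 0.26 in KD1 and by -0.16 in KD2.

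SRSF2, a core component of nuclear speckles, was higher in both knockdowns at both of its probes, but past 1.5-fold at neither. The upstream probe (A_33_P3412945, chr17:74732232-74732291) had signals of 4.47 on NC, 4.63 on KD1 and 4.69 on KD2. The downstream probe (A_23_P77776, chr17:74730601-74730660) read 5.11, 5.68 and 5.44, and its 1.49-fold difference in KD1 was the nearest of the SR probes to the threshold from inside. The probes lie 1631 bases apart in both NM_003016 and the genome. The downstream probe also lists NM_001195427 and the non-coding NR_036608, which the upstream probe does not. The gap between their changes was 0.41 in KD1 and 0.12 in KD2.

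SRSF4, one of the larger family members with a long arginine and serine tail, had signals of 5.09 on NC, 5.41 on KD1 and 5.44 on KD2 at its only probe (chr1:29474499-29474558). SRSF1, the founding member and a regulator of alternative 5′ splice site choice, had signals of 0.27 on NC, 0.37 on KD1 and 0.49 on KD2 (chr17:56078390-56078449). Both were lowest on NC. SRSF9, a shorter relative of SRSF1, read 3.56, 3.74 and 3.62 (chr12:120903500-120903559). The largest of these changes was the 1.28-fold difference of SRSF4 in KD2.

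SRSF7, which shares the export adaptor role of SRSF3, was higher in both knockdowns at its upstream probe, within 1.5-fold. That probe (A_33_P3305840, chr2:38976675-38976734) read 4.91 on NC, 5.32 on KD1 and 5.22 on KD2, that is 1.33-fold and 1.24-fold higher. The downstream probe (A_24_P222911, chr2:38971218-38971277) read -1.35, -1.05 and -1.49, higher than NC in KD1 and lower in KD2. Its intensities before scaling were 45.1, 73.8 and 43.9.

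SRSF5 and SRSF6 were the genes whose probes mostly lay at or below the control. The overlapping SRSF5 probes had signals of 5.10 and 5.12 on NC, 4.86 and 4.94 on KD1, and 5.09 and 5.11 on KD2. With 46 of their 60 bases in common, their changes differed by 0.07 in KD1 and by -0.0025 in KD2, the smallest differences among probe pairs of 1 gene in KD2. SRSF6 was read at its downstream end by A_33_P3220530 (chr20:42092182-42092241), with 6.65 on NC, 6.47 on KD1 and 6.55 on KD2. The probe whose first-listed transcript is non-coding (A_33_P3238455) read 1.49, 1.24 and 1.79, lower than NC in KD1 and 1.23-fold higher in KD2. The files list at most 4 transcripts per probe, so a transcript missing from that list may still be read by it.

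**Figure D3:**
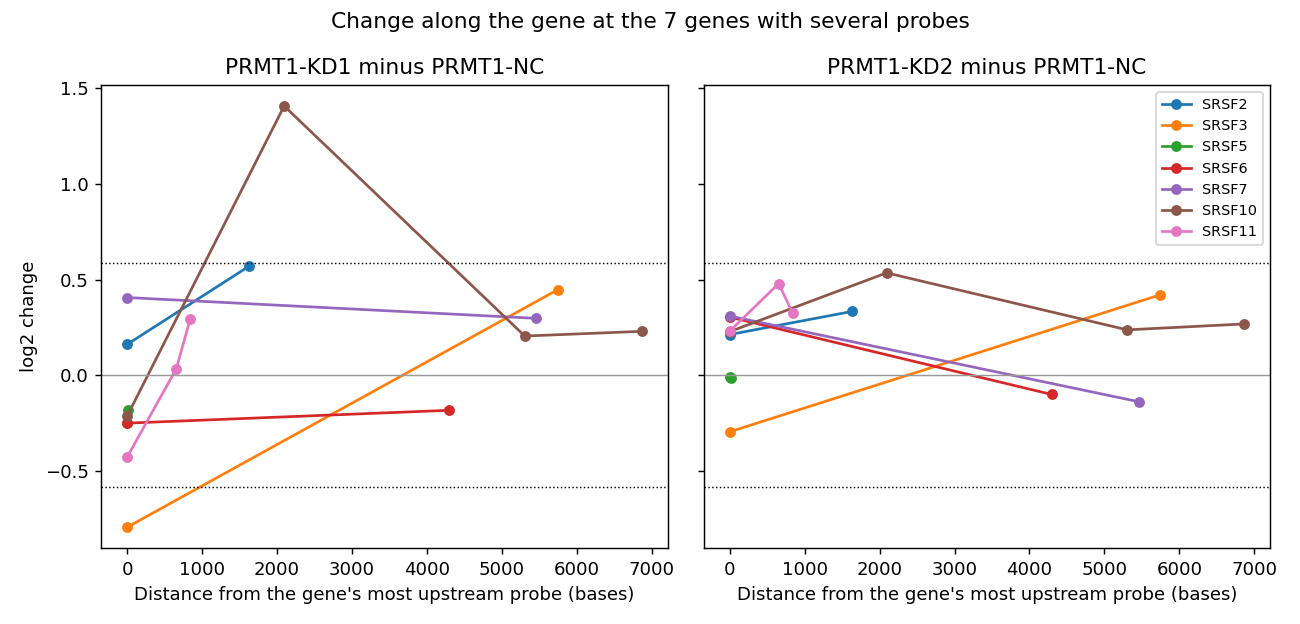
Log2 change in KD1 (left) and KD2 (right) against NC, plotted against the distance in genome bases from the most upstream probe of the gene along its strand, for the 7 SR genes with 2 or more probes. Each point is 1 probe on 1 array per group, lines join probes of a gene, and dotted lines mark 1.5-fold. In KD1 the lines of SRSF2, SRSF3 and SRSF11 climb downstream and SRSF10 peaks at 1.41 at its second probe, while in KD2 the points lie between -0.30 and 0.54.

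Differences between probes of a gene were also seen across the array as a whole, in the same direction in KD1. Of the 6 SR genes with outer probes at least 500 and at most 1000000 bases apart, 5 had a larger KD1 change at the downstream probe, with differences of 1.24 for SRSF3, 0.72 for SRSF11, 0.44 for SRSF10, 0.41 for SRSF2 and 0.07 for SRSF6. The exception was SRSF7, at -0.11. Over all 3375 genes treated in the same way, the downstream change exceeded the upstream one in 63.3%, by a median of 0.18 log2 units, and the 5th and 95th percentiles were -0.68 and 1.26. In KD2, 4 of the 6 SR genes had the larger change downstream, 0.72 for SRSF3 and 0.04 to 0.12 for SRSF2, SRSF10 and SRSF11, with -0.40 for SRSF6 and -0.45 for SRSF7. Over all genes it was 53.9%, with a median of 0.03 and a 95th percentile of 0.77. Each of these SR differences between outer probes lay within the 5th and 95th percentiles. SRSF10 A_23_P352291 is not an outer probe and does not enter them. In KD1 the downstream minus upstream difference was 1.62 from A_33_P3303215 to it. From it to A_32_P45493 and A_23_P311201 the KD1 differences were -1.20 and -1.18. These lie outside the KD1 percentiles of outer probes, but inner pairs were not taken over all genes. Between KD1 and KD2 the downstream probe was the higher one in 6 of 6 SR genes, beside 65.8% of all genes.

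The change also moved with the base composition of the probe. For probes detected on every array, the median KD1 change went from 0.20 at a GC content above 30% and up to 35%, through -0.05 above 40% and up to 45%, to -0.47 above 60%. In KD2 the same classes had medians of 0.06, -0.05 and -0.20. The SR probes had 35% to 55% GC, with a median of 42.5% beside 45% for all probes above background. With each change set against probes of like GC content and brightness, a comparison chosen after seeing the data, the median of the SR probes was 0.06 in KD1 and 0.31 in KD2. The SRSF3 probes have 45% and 41.7% GC, and SRSF10 A_23_P352291 has 36.7%, the same as the most downstream SRSF10 probe. The part of probe position and base composition in the differences between probes was not tested.

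The genes that act on or with SR proteins were taken as 5 lists, with 83 measured probes in KD1 and 82 in KD2. Of these, 22 were past 1.5-fold in KD1 and 14 in KD2, beside 29.1% and 23.8% of all measured probes. By direction, the shares of all measured probes were 14.7% higher and 14.4% lower in KD1, and 12.6% higher and 11.2% lower in KD2. The counts of each list below stand beside these shares. The share of all probes past 1.5-fold in both knockdowns is not given here. Genes named from the lists beyond those past 1.5-fold in the same direction in both knockdowns were chosen after their values were seen.

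Among the kinases that phosphorylate SR proteins, 3 of 13 measured probes were higher and 2 lower past 1.5-fold in KD1, and 0 in KD2, with medians of 0.16 and -0.04. SRPK1, the main cytoplasmic SR protein kinase, read 5.51 on NC, 5.71 on KD1 and 5.69 on KD2. SRPK2 read -0.30, 0.61 and -0.03, so KD1 alone stood apart. CLK4, a nuclear kinase of the same substrates, read -0.11, 0.65 and -0.04, again with KD1 the highest. Probes of DYRK1A went both ways in KD1, with changes of -0.77, -0.64 and 0.69. The probe with the second of these changes was not well above background on KD1, where its own signal of -2.99 was used.

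SR-related and SR-like proteins, the list with the most probes, also had the most past the threshold in KD2. Of 28 measured probes, 6 were higher and 2 lower in KD1, and 10 were higher and 1 lower in KD2, with medians of 0.10 and 0.41. Under median scaling 7 of 28 were past 1.5-fold in KD2, beside 26.9% of all measured probes. Past 1.5-fold in both knockdowns were 1 probe each of SON, a speckle scaffold, of LUC7L, a U1-associated protein, and of SCAF8, which binds the tail of RNA polymerase II, all higher, and 1 probe of BCLAF1, lower. SON A_23_P402733 read -1.52 on NC, -0.66 on KD1 and -0.76 on KD2, while the other 3 SON probes had changes of -0.37 to 0.26 in KD1 and 0.24 to 0.71 in KD2. LUC7L A_33_P3299170 read 5.08, 5.77 and 6.02, and its second probe had changes of 0.27 and 0.91. SCAF8 read 1.73, 2.61 and 2.32. BCLAF1 A_23_P111343 read 6.16, 5.46 and 5.49, and its second probe had changes of 0.06 and -0.45. TRA2B, an SR-like activator that binds exonic enhancers, had 3 probes, with changes of -0.22, -0.05 and 0.66 in KD1 and 0.59, 0.69 and 0.54 in KD2. Thus the 3 TRA2B probes lay close together in KD2 and apart in KD1.

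The partners at the splice sites and in transport had few probes past the threshold. Of 12 probes for U1, U2AF, SF1, SF3B1 and ZRSR2 components, 1 was higher past 1.5-fold in KD1 (ZRSR2, 0.62) and 0 in KD2, with medians of 0.08 and 0.16. SNRNP70, the U1 protein that SR proteins contact at the 5′ splice site, read 2.09 on NC, 2.21 on KD1 and 2.39 on KD2. Of 5 probes for nuclear import and mRNA export, 0 passed in KD1 and 1 in KD2 (NXF1, 0.70, beside 0.52 in KD1). The medians were 0.21 and 0.40.

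Nonsense-mediated decay and exon junction genes had 6 of 25 measured probes higher and 2 lower in KD1, and 1 of 24 higher and 1 lower in KD2, with medians of 0.02 and 0.07. SMG1 A_24_P244952, a probe for the kinase that phosphorylates UPF1, was past 1.5-fold in both knockdowns, with signals of -0.38 on NC, 0.93 on KD1 and 0.43 on KD2. The other 4 SMG1 probes had changes from -0.21 to 0.46 in KD1 and from -0.10 to 0.47 in KD2. UPF1 itself, the central helicase of the pathway, read 5.91, 5.70 and 6.07, within 1.5-fold of NC in both knockdowns.

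**Figure D4:**
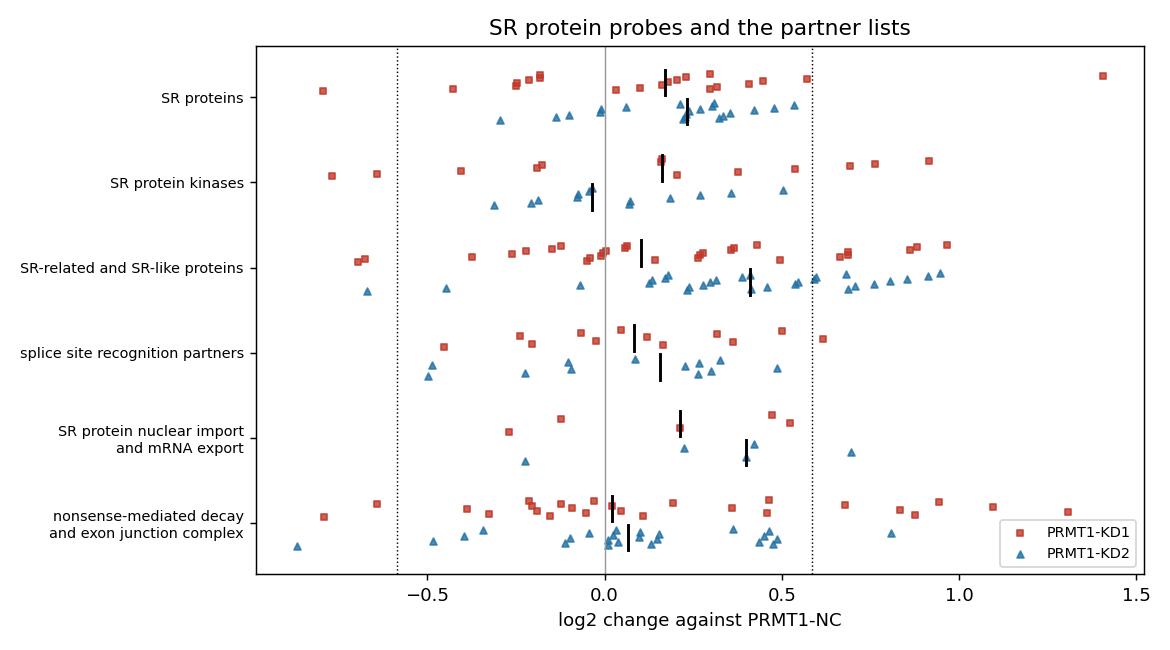
Log2 change against NC of every measured probe of the SR proteins and of the 5 partner lists, in KD1 (red squares) and KD2 (blue triangles), 1 array per group. Black bars mark the median of each list and dotted lines 1.5-fold, and the vertical spread within a row only separates points. The SR-related proteins reach furthest to the right in KD2, with a median of 0.41, beside 0.23 for the SR proteins.

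The called SR probes were then followed over 11 other settings of the processing. Among these, the stricter filter and the lack of a floor could not alter an SR probe, since all were above background on every array. Keeping outlier spots could act only through the scaling, since no SR spot was marked. The counts of settings below include these. SRSF10 A_23_P352291 stayed past 1.5-fold in KD1 under 11 of 11, with changes from 1.08 to 2.05. SRSF3 A_33_P3232828 stayed below NC in KD1 under all 11, from -0.84 to -0.15, and past 1.5-fold under 9. It was within 1.5-fold on the unscaled intensities (-0.38) and when arrays were scaled to spike-in probes (-0.15). SRSF2 A_23_P77776, just inside the threshold, was past it in KD1 under 7 of 11. SRSF10 A_23_P352291 was past it in KD2 under 3 of 11. Scaling an array by 1 factor shifts all its probes alike and leaves the difference between the probes of a gene as it is. Under all settings more SR probes were above NC than below, 12 to 19 of 20 in KD1 and 14 to 19 in KD2. The count of 19 in each knockdown came with spike-in scaling, where the median over all probes was 0.59 in KD1 and 0.26 in KD2. The count of 14 in KD2 came with median scaling, where that median was -0.19. The share of all probes above NC is not given for the other settings, so these counts have no background there. The SRSF5 and SRSF6 probes, below NC in KD1, were above it with spike-in scaling and on the unscaled intensities.

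**Figure D5:**
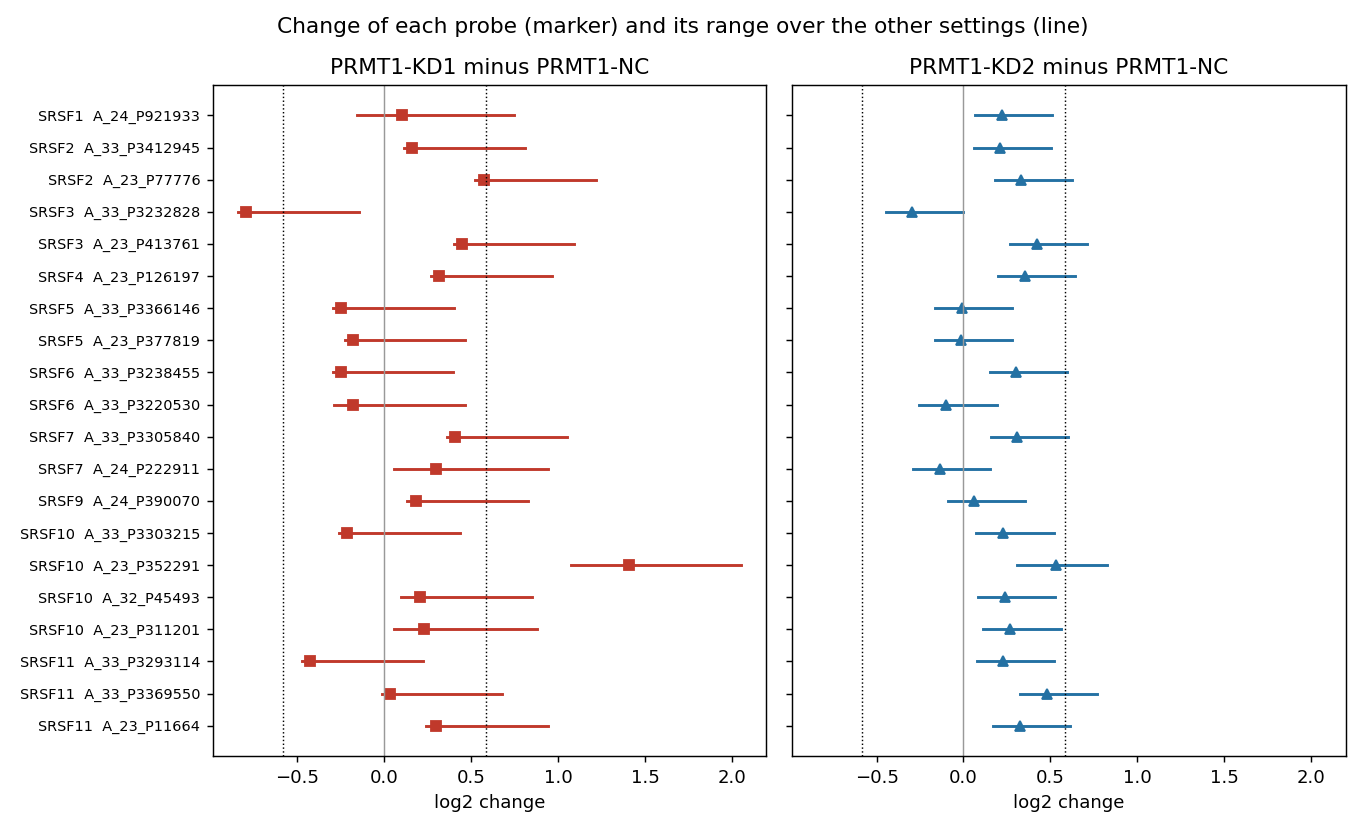
Log2 change against NC of each SR protein probe (marker) and the lowest and highest value over 11 other ways of processing (line), for KD1 (left) and KD2 (right), with dotted lines at 1.5-fold. In KD1 the whole line of SRSF10 A_23_P352291 lies past 1.5-fold, from 1.08 to 2.05, and the line of SRSF3 A_33_P3232828 lies below 0, from -0.84 to -0.15.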

How the data were processed

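RNA of HCT116 cells was hybridised to 1-colour Agilent arrays, 1 array per group on 1 slide and 1 scan. The authors deposited the scanner output of Agilent Feature Extraction 10.7.1.1, whose processed intensity is background-corrected and not scaled between arrays, and a series matrix that holds these intensities averaged per probe, likewise unscaled. Probe positions are hg19.

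Control spots and spots marked as outliers were dropped, spots of a probe were averaged as log2, and the 75th percentile of each array was subtracted, which left 58071 probes. A probe counted as measured in a comparison when it was well above background on at least 1 array of the pair. On an array where it was not, the higher of its own signal and the lowest signal well above background was used. Called means past 1.5-fold, the fold in the study's methods, whose p-value needs replicate arrays. The number of arrays limits the precision. Named were every SR probe, PRMT1, the markers and, from each partner list, at most 4 probes past 1.5-fold in one direction in KD1 and KD2. Other partner genes were chosen after their values were seen. The members and lists were chosen with earlier results of these data known. All 10 symbols matched a RefSeq table (GRCh38.p14), used for names only.

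Alternatives were normexp (offset 50), median, quantile, detected-probe percentile and spike-in scaling (8 E1A probes), centring by brightness (20 classes), the series matrix, a stricter filter, no floor, outlier spots kept and a fold of 2. Centring by GC content (5 classes) and brightness (5 classes in each) was added after seeing the data. The calculation was tested on simulated data. Normexp was run in limma 3.58.1 under R 4.3.3, and all other steps in pandas 2.3.3 and numpy 2.4.6 under Python 3.11.15.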

Additional observations from a re-analysis of the deposited data

Results flagged for a closer look

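SMG8, a subunit of the complex that restrains the decay kinase SMG1, was the one probe among the SR proteins and their 5 partner lists that was past 1.5-fold on opposite sides of the control. A_23_P66563 read 1.73 on NC, 2.67 on KD1 and 0.86 on KD2, a change of 0.94 log2 units in KD1 and of -0.87 in KD2. Of all measured probes, 29.1% were past 1.5-fold in KD1 and 23.8% in KD2. The share of all probes past it on opposite sides is not given here, so whether 1 such probe is unusual cannot be told. The SMG8 probe was picked out after its values were seen, each value rests on 1 array, and the difference between the knockdowns was not tested.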

How the results depend on the processing

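Scaling to the spike-in probes and the unscaled series matrix values shifted all probes. The median over all probes in KD1 went from -0.05 to 0.59 and 0.36, and in KD2 from -0.03 to 0.26 and 0.07. With spike-in scaling the SR probes past 1.5-fold were 13 of 20 in KD1 and 8 of 20 in KD2, all higher, and their median in KD1 was 0.82. The partner probes past 1.5-fold were 55 of 83 and 33 of 82. Of all probes, 53.4% were past it in KD1 and 29.9% in KD2. With the series matrix values the SR probes past it were 10 of 20 and 1 of 20, all higher, and their median in KD1 was 0.59. The partner probes past it in KD1 were 36 of 83. Of all probes, 39.3% were past it in KD1 and 24.4% in KD2. Median scaling moved the median over all probes to 0.06 in KD1 and -0.19 in KD2. The median of the SR probes minus that of all probes ranged over the settings run from 0.06 to 0.23 for KD1 and from 0.27 to 0.34 for KD2, the lowest KD1 value being that of centring by GC content and brightness.

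Other counts of SR probes that moved, from 2 in KD1, 0 in KD2 and 2 between the knockdowns, were as follows. Each count is out of 20 and stands beside the share of all probes in the same setting. Under normexp there were 4 in KD1 (12.6%) and 1 between the knockdowns (7.59%). Under brightness centring there were 4 in KD1 (27.8%) and 2 in KD2 (22.0%). Under the percentile over detected probes there were 1 in KD2 (23.8%) and 4 between the knockdowns (22.0%). At 2-fold there was 1 in KD1 (10.4%) and 0 between the knockdowns (6.76%). The partner probes past 2-fold were 2 of 83 in KD1, beside the same 10.4%, and 0 of 82 in KD2, beside 8.02%. With normexp 12.6% of all probes were past 1.5-fold in KD1 and 8.26% in KD2, against 29.1% and 23.8%. The share of SR probes past 1.5-fold, below that of all probes in both knockdowns, was above it in KD1 with normexp, spike-in scaling and the series matrix values, and in KD2 with spike-in scaling. No called SR probe changed its direction under any setting. Causes of these moves other than the shifts given were not tested. With 1 array per group, no array could be left out.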
